A study of Ovis aries with 41 samples.

Results

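In skin of the sheep tail, 8 genes were followed, SCARA5, ECRG4, PI16, DPP4, CD34, CLEC3B, DPT and APOD, which are in use as markers of adventitial, or universal, fibroblasts. They were selected by symbol, with earlier results of these data known and under the heading of genes that are lower towards the tip, so that their values along the tail are a description and carry no test. All 8 had a row among the 31182 genes of the count table, and all 8 passed the filter on low counts with which 19444 genes were tested between positions. The heading held for part of the set. SCARA5, ECRG4, PI16, DPP4 and CLEC3B were lower at the tip than at the base in 7 of 7 rams, CD34 and DPT in 5 of 7, and APOD in 0 of 7.

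RNA was sequenced from punch biopsies of skin, taken after slaughter from adult rams of the Improved Jezersko–Solčava breed. The 4 A/A rams carried 2 copies of the ancestral allele of the HOXB13 promoter and had short tails, and the 3 D/D rams carried 2 copies of the derived allele, which holds an insertion, and had long tails. Skin came from the tail base, mid-tail and near the tail tip of each ram, and base and tip were farther apart in the long-tailed rams. The labels give 2 libraries for each ram and position, with the exception of ram 871869 (D/D), which has 1 at mid-tail. There is no treatment, and ages of single rams are not given in the sources used here. HOXB13 genotype, tail length and any other difference between these 7 rams cannot be told apart.

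Adventitial fibroblasts lie in the connective tissue sleeves around larger vessels and in the fascia and deep layers of many organs. In skin they are known from the reticular dermis and the layers beneath it, as opposed to the papillary fibroblasts under the epidermis. They are described as a reserve population that can give rise to other fibroblasts and to adipocytes, and they make matrix proteins of loose connective tissue. No marker is theirs alone, since CD34 is also made by endothelial cells and DPP4 by epithelial and immune cells. In whole skin, fewer cells of a type and less RNA per cell cannot be told apart.

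Libraries from the same ram and place were added up, which gave 21 ram sums. Values are in CPM, the count of a gene over the TMM-scaled total of its sum. CPM values compare a gene between samples and not 1 gene with another, as no transcript lengths were used here. The 41 libraries held 9177395 to 23431409 counts with a median of 14039720, and ram sums held 17132063 to 37645752. The lowest count of a member in a ram sum was 34, for ECRG4, and the highest 24932, for APOD. The A/A ram 835507 stood apart from the others at mid-tail and tip in several members, and values without it are given where they bear on a result.

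SCARA5 encodes a class A scavenger receptor that binds ferritin. It measured 91.7, 91.8, 85.4 and 39.1 CPM at the base of the A/A rams 835507, 871772, 871784 and 871932, and 58.1, 22.2, 15.8 and 14.4 CPM at the tip of the same rams. In the D/D rams 871787, 871868 and 871869 it measured 90.2, 56.3 and 61.6 CPM at the base and 17.1, 19.5 and 14.8 CPM at the tip. Every ram was lower at the tip than at its own base, with tip levels of 0.185 to 0.634 of the base level. The groups of base and tip values still overlapped, because the tip of ram 835507 lay above the base of rams 871932 and 871868. Mid-tail values were 109, 45.3, 29.5 and 23.5 CPM in A/A and 33.5, 36 and 35.7 CPM in D/D, between base and tip in 6 of 7 rams. The log2 fold change from base to tip was -1.69 (SE 0.24, n = 4 rams) in A/A and -2.0 (SE 0.28, n = 3 rams) in D/D. Without ram 835507 the A/A value was -1.98.

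ECRG4 encodes augurin, the precursor of secreted peptides. It was the least abundant member in counts, with 8.17, 17.3, 16.2 and 17.6 CPM at the base of the A/A rams, in the order above, and 1.13, 5.70, 8.08 and 4.58 CPM at the tip. The D/D rams had 8.83, 23.1 and 17.8 CPM at the base and 2.46, 9.89 and 8.71 CPM at the tip. Base and tip values overlapped, since the base of rams 835507 and 871787 lay as low as the tip of other rams. Within rams the tip stood at 0.138 to 0.498 of the base, and base, mid-tail and tip stood in descending order in 6 of 7 rams. The log2 fold change was -1.83 (SE 0.28, n = 4) in A/A and -1.33 (SE 0.31, n = 3) in D/D. Ram 835507 was the lowest in ECRG4 at mid-tail (1.80 CPM) and at the tip, while it was the highest in SCARA5 at both places.

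PI16 encodes a secreted or membrane-bound protein of the CAP family and gives the PI16-positive fibroblast its name. The base held 96.5, 162, 137 and 38.2 CPM in A/A and 129, 124 and 171 CPM in D/D. The tip held 59.3, 33.3, 38.0 and 33.4 CPM in A/A and 38.0, 71.3 and 38.2 CPM in D/D. Ram 871932 had a base level within the range of the tips, and its tip stood at 0.873 of its base, whereas the other 6 rams ranged from 0.205 to 0.615. The log2 fold change was -1.26 (SE 0.28, n = 4) in A/A and -1.57 (SE 0.32, n = 3) in D/D.

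DPP4 encodes the cell surface peptidase CD26. Its base levels were 55.7, 74.0, 76.7 and 84.1 CPM in A/A and 52.4, 68.9 and 84.3 CPM in D/D. Its tip levels were 11.1, 30.3, 47.7 and 39.9 CPM in A/A and 41.5, 51.2 and 54.5 CPM in D/D. The tip stood at 0.200 to 0.623 of the base in the A/A rams and at 0.646 to 0.792 in the D/D rams. At mid-tail, 3 A/A rams were at 0.393 to 0.443 of the base and the fourth, 871784, at 0.961, while the D/D rams were at 0.741 to 1.02. The log2 fold change from base to tip was -1.34 (SE 0.22, n = 4) in A/A and -0.47 (SE 0.24, n = 3) in D/D. Without ram 835507 the A/A value was -1.03.

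CLEC3B encodes tetranectin, a plasminogen-binding lectin of the extracellular matrix. It was the only member whose base and tip values did not overlap across rams, with 50.9 to 83.0 CPM at the base (median 69.2) and 27.5 to 49.0 CPM at the tip (median 31.0), n = 7 rams at each. Of the 19444 genes tested, 0.566% separated base and tip in this way. Its mid-tail values ran from 19.9 CPM in ram 871784 to 104 CPM in ram 871772, so that base, mid-tail and tip descended in only 3 of 7 rams. The log2 fold change from base to tip was -1.09 (SE 0.27, n = 4) in A/A and -0.99 (SE 0.32, n = 3) in D/D.

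CD34 encodes a sialomucin of the cell surface and DPT encodes dermatopontin, a matrix protein that binds collagen and decorin. Both differed little along the tail beside the spread of the rams. CD34 measured 106 ± 17.4 CPM at the base, 103 ± 34.2 at mid-tail and 87.4 ± 22.0 at the tip (SD, n = 7 rams), and it was not lower at the tip in rams 835507 and 871868, at 1.26 and 1.00 of the base. DPT measured 45.5 ± 20.2, 45.0 ± 11.1 and 29.1 ± 7.67 CPM, and in rams 835507 and 871868 it was higher at the tip, at 1.18 of the base in each. The log2 fold changes were -0.26 (SE 0.20) and -0.36 (SE 0.23) for CD34 in A/A and D/D, and -0.51 (SE 0.28) and -0.70 (SE 0.33) for DPT. Both members depended on the library used. In libraries numbered 1 alone DPT was at 0.05 in D/D and CD34 at 0.08 in A/A, and in libraries numbered 2 alone at -1.29 and -0.54.

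APOD encodes apolipoprotein D, a lipocalin that carries arachidonic acid and other small lipids. It measured 236, 364, 180 and 206 CPM at the base of the A/A rams and 657, 625, 402 and 578 CPM at the tip. The D/D rams had 242, 299 and 292 CPM at the base and 337, 695 and 444 CPM at the tip. It was thus higher at the tip in every ram, by 1.39 to 2.80 times, and base, mid-tail and tip ascended in 6 of 7 rams. The log2 fold change was 1.22 (SE 0.17, n = 4) in A/A and 0.78 (SE 0.20, n = 3) in D/D. In what follows APOD is therefore named apart from the 7 others, but counts, medians and means over the members include it.

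**Figure D1:**
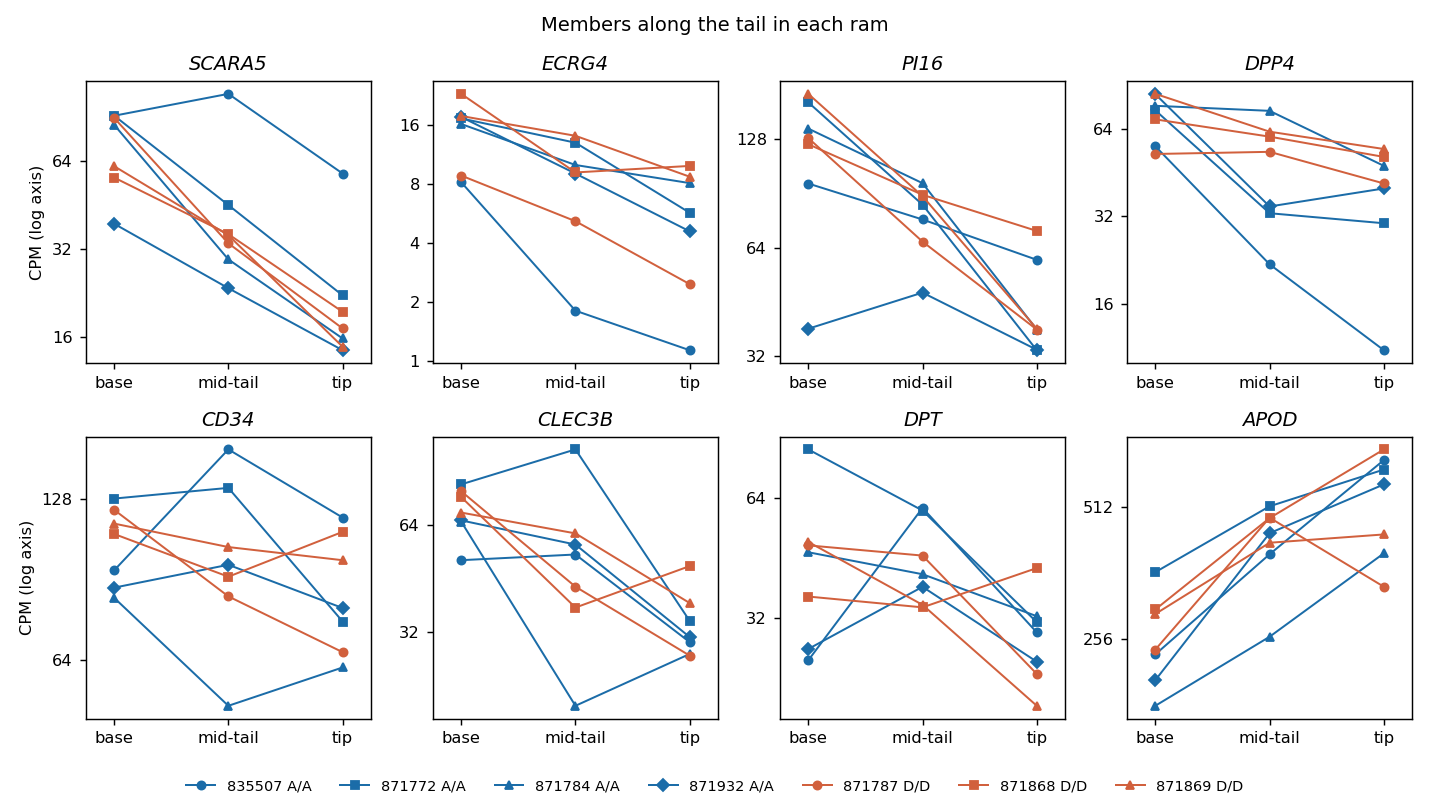
CPM of each member (log axis) at the base, mid-tail and tip, with 1 line for each of the 4 A/A (blue) and 3 D/D (orange) rams and the ram number in the key. SCARA5, ECRG4, PI16, DPP4 and CLEC3B end below their base in all 7 rams, APOD ends above it in all 7, and ram 835507 is high in SCARA5 and low in ECRG4 and DPP4 at the tip.

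The members are not neighbours in the genome. RefSeq places them, on ARS-UI_Ramb_v3.0 and as protein-coding genes, on 6 chromosomes. SCARA5 spans bases 102260374 to 102393787 and DPP4 147778852 to 147859788 of chromosome 2, CD34 74894801 to 74918230 and DPT 35565730 to 35602415 of chromosome 12. ECRG4 spans 60923796 to 60933218 of chromosome 3, PI16 10947200 to 10961239 of chromosome 20, CLEC3B 54134261 to 54140349 of chromosome 19 and APOD 192885541 to 192898072 of chromosome 1. Counts were taken over the exons of each gene on its own strand. For the 16 nearest tested genes, 1 on each side of each member, the adjusted p between tip and base in edgeR lay between 0.0834 and 1 over the mean of A/A and D/D.

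The steps along the tail were of unlike size among members. Averaged over A/A and D/D, the log2 fold change from base to mid-tail was -0.89 (SE 0.18) for SCARA5, -0.92 (SE 0.21) for ECRG4, -0.61 (SE 0.21) for PI16 and -0.59 (SE 0.16) for DPP4. For CLEC3B it was -0.51 (SE 0.21), for CD34 -0.13 (SE 0.15) and for DPT -0.01 (SE 0.21). APOD stood at 0.74 (SE 0.13). Taken from the mean log2 differences within rams (n = 7), the base-to-mid-tail step made up 47.2% of the log2 difference of SCARA5, 59.1% for ECRG4, 39.1% for PI16, 66.2% for DPP4, 49.7% for CLEC3B and 71.3% for APOD. DPT was near its base level at mid-tail and stood at -0.60 (SE 0.21) from mid-tail to tip.

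Between tip and base over the mean of A/A and D/D, 5 members were called lower and 1, APOD, higher at an adjusted p under 0.05 in edgeR, where 2.62% of all 19444 genes were called lower and 1.89% higher. In A/A alone 4 members were called lower and 1 higher, beside 0.787% and 0.843% of all genes, and in D/D alone 2 were called lower and 0 higher, beside 0.447% and 0.118%. Between mid-tail and base 0 members were called in either genotype, beside 0.0257% of all genes in A/A and 0% in D/D, with 4 members in A/A and 5 in D/D at an unadjusted p under 0.05, as were 1969 and 1311 of all 19444 genes. DESeq2 called 3 members in A/A (APOD, DPP4 and ECRG4) and 0 in D/D, among 149 and 40 genes in all. By limma-voom 0 members were called in each, among 10 and 0 genes. Over the mean of both genotypes 1 member, APOD, was called higher and 0 lower at mid-tail than at the base, beside 0.0771% and 0.0566% of all genes. The D/D count was 0 when any of the 3 D/D rams was left out, where at most 2 of all genes were lower and 2 higher. The members were chosen for this pattern, and nothing is read from these counts.

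The comparison of genotypes was not used in choosing the members and asks whether the difference along the tail is of another size in long-tailed rams. For DPP4 the base-to-tip change in D/D exceeded that in A/A by 0.87 on the log2 scale (SE 0.33, 95% interval 0.18 to 1.56), with an unadjusted p of 0.0165 and an adjusted p of 0.789 in edgeR. Each A/A ram had a lower tip-to-base ratio of DPP4 than each D/D ram, a separation found in 1 of the 8 members and in 8.05% of all 19444 genes. For the base-to-mid-tail change the difference was 0.78 (SE 0.33, 95% interval 0.09 to 1.47), with an unadjusted p of 0.0296 and an adjusted p of 0.884. Neither passed the correction over 19444 genes, and without ram 835507 the values were 0.56 and 0.63. For SCARA5 the difference at the tip was -0.31 (SE 0.36, 95% interval -1.07 to 0.45) and -0.02 without ram 835507, while it was for ECRG4 0.50 (SE 0.41, -0.38 to 1.37), for PI16 -0.30 (SE 0.42, -1.18 to 0.58) and for CLEC3B 0.10 (SE 0.41, -0.78 to 0.98). APOD had -0.44 (SE 0.26, -0.99 to 0.11). In both tests 0 members were called by edgeR, DESeq2 and limma-voom, and DPP4 was the 1 member with an unadjusted p under 0.05 in edgeR. Of all genes edgeR called 0%, with 1188 and 1013 at an unadjusted p under 0.05, and DESeq2 called 15 and 6. DPT had -0.19 (SE 0.43, -1.1 to 0.72) and CD34 -0.1 (SE 0.30, -0.74 to 0.54) at the tip. The intervals at the tip leave room for differences of more than 1 log2 unit in SCARA5, ECRG4, PI16, DPP4 and DPT.

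**Figure D2:**
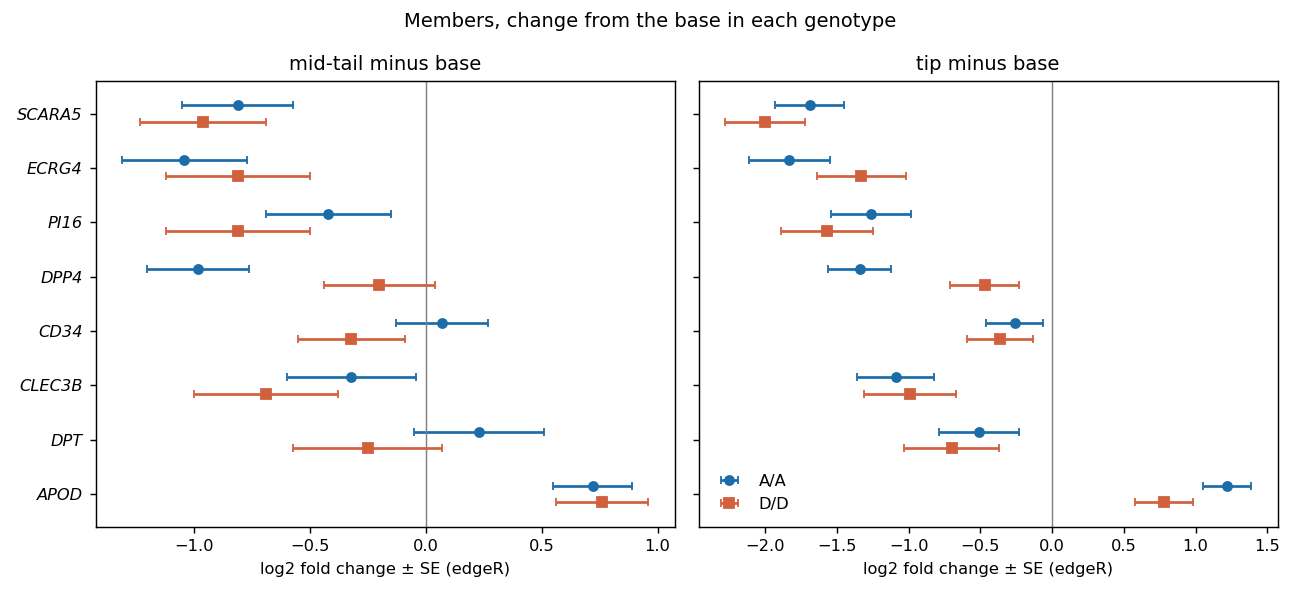
Log2 fold change from the base to mid-tail (left) and to the tip (right) for each member, with bars of 1 SE, in 4 A/A (blue circles) and 3 D/D (orange squares) rams. At the tip DPP4 stands at -1.34 in A/A and -0.47 in D/D, the widest gap among the members, and APOD is the only member to the right of zero there.

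Levels in A/A and D/D at the same place were compared over the 7 rams. The range of A/A overlapped that of D/D for every member at every position, while 4.75%, 7.93% and 14.5% of all genes had ranges apart at the base, mid-tail and tip. At the base, mid-tail and tip 0 of 8 members were called by edgeR, with 0 at an unadjusted p under 0.05, and 0 by DESeq2 and by limma-voom. Of all genes 0% were called at each position, out of 17738, 17996 and 17842 tested, with 567, 1014 and 1824 at an unadjusted p under 0.05, and DESeq2 called 18, 31 and 65 genes. The widest differences stood at the tip, with SCARA5 at 0.70 (A/A minus D/D, SE 0.49, 95% interval -0.42 to 1.82) and DPP4 at -0.60 (SE 0.41, -1.54 to 0.34). Without ram 835507 they were 0.04 and -0.30. At the base every member lay within 0.38 log2 units between genotypes.

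Other genes of adventitial fibroblasts were compared with the members. Of 24 listed genes 22 were counted and tested, and between tip and base 10 were lower and 0 higher in edgeR over the mean of A/A and D/D, beside 2.62% and 1.89% of all genes. A further 10 had a negative value without passing. The median of the 22 was -0.50 on the log2 scale, beside -0.02 over all genes. Between mid-tail and base 0 of them were called in edgeR and in limma-voom, with 6 at an unadjusted p under 0.05 and 2 called by DESeq2. Of all 19444 genes 2150 had an unadjusted p under 0.05 there in edgeR, and DESeq2 called 116 lower and 149 higher. The list was drawn up with earlier results of these data known.

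TNXB, which encodes the matrix glycoprotein tenascin-X, fell most, from 148 ± 44.9 CPM at the base to 73.1 ± 47.1 at mid-tail and 35.6 ± 17.1 at the tip (SD, n = 7 rams). Its log2 fold change was -2.22 (SE 0.27, adjusted p 0.000362 in edgeR), and it fell within A/A and within D/D on their own. CCDC80, a secreted matrix protein, fell by 1.28 (SE 0.17, adjusted p 0.000595), and GPX3, the secreted glutathione peroxidase, fell by 1.31 (SE 0.19, adjusted p 0.000979). ADGRD1, an adhesion receptor, fell by 1.12 (SE 0.17, adjusted p 0.00182). All 4 were lower at the tip in 7 of 7 rams and passed in each of the 7 fits that left out 1 ram.

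The others that fell were PCOLCE2, an enhancer of procollagen processing, by 2.00 (SE 0.38), CD248, the surface protein endosialin, by 1.14 (SE 0.25), and CCN5, a matricellular protein, by 1.11 (SE 0.26). MFAP5 and FBLN2, proteins of elastic fibres, fell by 0.83 (SE 0.16) and 0.78 (SE 0.19), and OGN, a small proteoglycan, by 0.78 (SE 0.21), with adjusted p from 0.00636 to 0.0423. PCOLCE2, CD248 and MFAP5 did not pass without ram 871787 or 871869, CCN5 and FBLN2 without either of these or 871932, and OGN passed in 2 of 7 such fits (largest adjusted p 0.0508 to 0.206). In libraries numbered 1 alone none of these 6 passed, with -0.91 for PCOLCE2, -0.71 for CD248, -0.61 for CCN5, -0.32 for MFAP5, -0.37 for FBLN2 and 0.03 for OGN (adjusted p 0.0581 to 0.954). In libraries numbered 2 alone they stood at -2.76, -1.45, -1.30, -1.25, -1.12 and -1.36, and PCOLCE2 and MFAP5 passed. ADGRD1 did not pass in libraries numbered 1 either (-0.72, adjusted p 0.0549). SEMA3C, ANXA3 and COL14A1, also in use as markers of these cells, stood at -0.01 (SE 0.24), -0.04 (SE 0.10) and 0.02 (SE 0.14). MGST1 had the highest value of the list at 0.28 (SE 0.13, adjusted p 0.254).

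Genes of fibroblasts in general were mostly lower at the tip as well, with 10 of 12 negative. Their median, given below, was close to the -0.50 of the 22 other adventitial genes. It was less negative than the -0.97 of the members, which were chosen for falling. Of 12 pan-fibroblast genes 3 fell in edgeR, the collagen genes COL1A1 (-1.25, SE 0.34, adjusted p 0.0496), COL3A1 (-1.12, SE 0.28, adjusted p 0.0344) and COL5A1 (-0.69, SE 0.18, adjusted p 0.0398), with a median of -0.45 over the list. These calls depended on single rams, as COL1A1 passed in 1, COL3A1 in 4 and COL5A1 in 3 of the 7 fits that left out 1 ram, with adjusted p up to 0.197, 0.169 and 0.160. PDGFRA, the receptor present on most fibroblasts, was at 0.43 (SE 0.16, adjusted p 0.171). In the same ram sums the mean of the 12 differed by -0.41 ± 0.45 log2 units from base to tip (SD, n = 7 rams).

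Taken relative to that mean, a scaling chosen after the data were seen, the difference from base to tip was -1.35 ± 0.73 log2 units for SCARA5, -1.09 ± 0.69 for ECRG4 and -0.97 ± 0.70 for PI16 (SD, n = 7 rams). It was -0.54 ± 0.73 for DPP4 and -0.63 ± 0.55 for CLEC3B, each negative in 5 of 7 rams. CD34 was at 0.12 ± 0.63 and so changed sign, and DPT was at -0.16 ± 0.72. APOD was 1.44 ± 0.49 higher, in all 7 rams.

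Fibroblasts of other layers gave other values. Of 9 tested papillary genes 0 fell and 1 rose, the Wnt inhibitor WIF1 at 0.62 (SE 0.13, adjusted p 0.0143), with a median of 0.11. Of 4 parenchymal genes 1 rose, COL15A1 at 0.60 (SE 0.11, adjusted p 0.00755). WIF1 did not pass without ram 871787, 871868 or 871932 (adjusted p up to 0.131), nor COL15A1 without 871787 (0.0516). Of 8 tendon and cartilage genes 4 rose, led by COMP at 3.03 (SE 0.41, adjusted p 0.000711) and the tenomodulin gene TNMD at 1.85 (SE 0.26, adjusted p 0.000898), with low levels throughout (a summed 87.3 to 154 CPM at the tip).

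**Figure D3:**
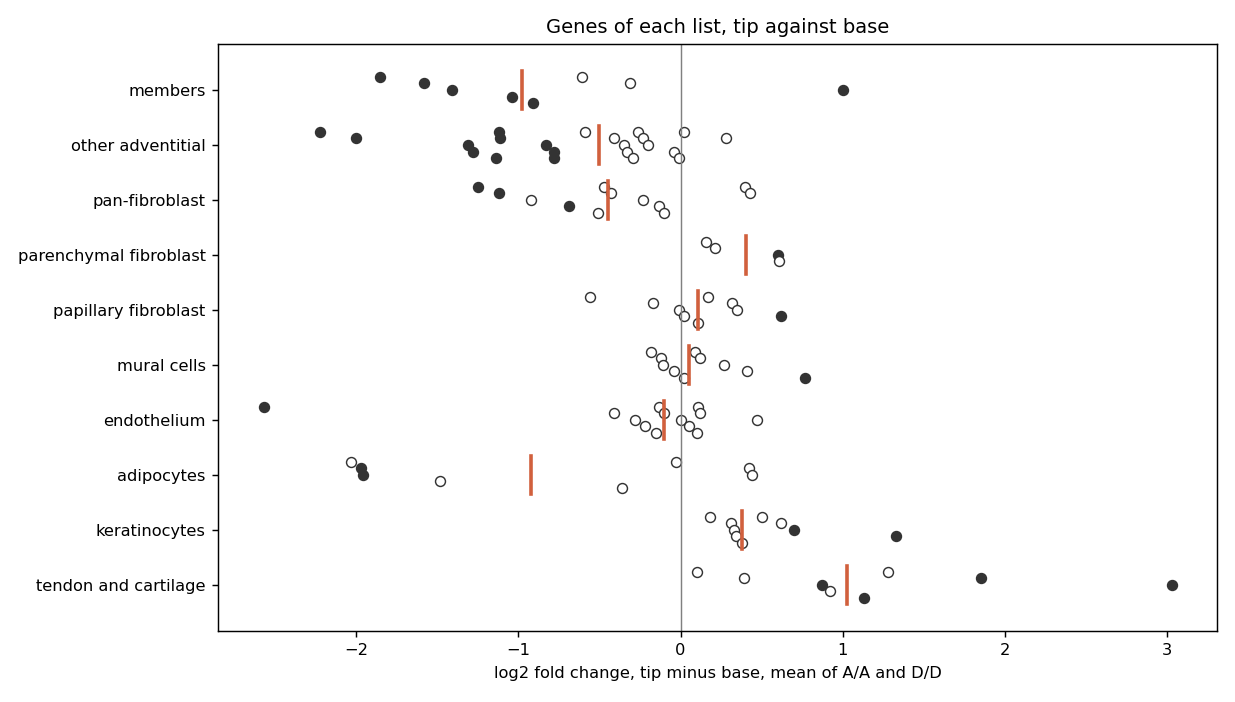
Log2 fold change from base to tip, averaged over A/A and D/D, of each gene of 10 lists (rows), with filled points for an adjusted p under 0.05 in edgeR and an orange bar at the median of a list. The members and the 22 other adventitial genes lie mostly left of zero, with medians of -0.97 and -0.50, and the tendon and cartilage list lies right of it; the members were chosen for this contrast.

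Markers of other cell types moved along the tail too. Of 8 adipocyte genes 2 fell, ADIPOQ by 1.97 (SE 0.49, adjusted p 0.0304) and CIDEC by 1.96 (SE 0.41, adjusted p 0.0118), with a median of -0.92. The 8 genes summed to 886 to 3820 CPM at the base and 929 to 3650 CPM at the tip. This sum was led by PLIN4 (801 ± 958 CPM at the base, 809 ± 988 at the tip) and FABP4 (443 ± 151 and 558 ± 128). ADIPOQ measured 229 ± 142 and 74 ± 58.4 CPM (SD, n = 7 rams). Of 13 endothelial genes 1 fell, LYVE1 of lymphatic vessels and some macrophages, by 2.57 (SE 0.35, adjusted p 0.000741), while PECAM1 was at -0.22 (SE 0.17, adjusted p 0.549). PROX1 and FLT4, also of lymphatic vessels, stood at 0.1 (SE 0.34) and 0 (SE 0.22). The 13 genes summed to 359 to 564 CPM at the base and 257 to 649 CPM at the tip. Of 9 keratinocyte genes 2 rose, KRT1 at 1.33 (SE 0.25, adjusted p 0.00726) and DSG3 at 0.70 (SE 0.13, adjusted p 0.00598), with sums of 15900 to 32000 and 24100 to 47400 CPM. RGS5 of pericytes rose at 0.77 (SE 0.20, adjusted p 0.0440) as 1 of 10 mural genes. Leaving out 1 ram ended the call of ADIPOQ without any D/D ram, of CIDEC without 871787 or 871869, of KRT1 without 871787 or 871868 and of DSG3 without 871787, and RGS5 passed in 1 of 7 such fits. The part of these cell types in the values of the members was not tested.

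Genes of some further cell types fell as well. The monocyte and macrophage genes CD14 and CSF1R fell by 1.09 (SE 0.19, adjusted p 0.00358) and 0.77 (SE 0.15, adjusted p 0.00753), 2 of 6 immune genes. KRT8 and KRT18 of simple epithelia fell by 0.74 (SE 0.15, adjusted p 0.00927) and 0.85 (SE 0.17, adjusted p 0.0106), 2 of 6 sweat gland genes. Of 9 wool follicle genes SHH fell by 1.15 (SE 0.29, adjusted p 0.0321), of 6 skeletal muscle genes TTN fell by 1.16 (SE 0.24, adjusted p 0.0106), and of 7 sebaceous genes 0 were called, with 3 at an unadjusted p under 0.05. SHH and TTN were low already at the base, at 2.4 ± 0.975 and 2.14 ± 1.49 CPM (SD, n = 7 rams). Of the 7 fits that left out 1 ram, SHH passed in 3, KRT8 and KRT18 in 5, and CSF1R and TTN in 6, while CD14 passed in all 7.

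SCARA5 takes up ferritin, and the other genes of iron handling were looked at for that reason. Of 9 tested, 0 fell and 1 rose, ceruloplasmin (CP), at 1.77 (SE 0.47, adjusted p 0.0447) from a base level of 0.494 ± 0.241 CPM, a call kept in 1 of 7 fits that left out 1 ram. The ferritin heavy chain FTH1 was at -0.07 (SE 0.13), the transferrin receptor TFRC at 0.05 (SE 0.17) and ferroportin (SLC40A1) at -0.14 (SE 0.20). Among 18 tested paralogs of the members 2 fell, the CAP family genes GLIPR2 by 0.77 (SE 0.12, adjusted p 0.00176) and CRISPLD2 by 0.60 (SE 0.12, adjusted p 0.0108). SCARA3 and COLEC12, scavenger receptors related to SCARA5, stood at 0.13 (SE 0.18) and 0.48 (SE 0.16, adjusted p 0.117), and FAP, the closest relative of DPP4, at -0.13 (SE 0.16).

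The members did not vary as a block from ram to ram. Over the 21 ram sums, which share rams and positions, Pearson's r of log2(CPM + 0.5) was 0.77 for SCARA5 with PI16, 0.83 for ECRG4 with DPP4 and 0.73 for CD34 with CLEC3B, but 0.04 for SCARA5 with DPP4. After the mean of each genotype and position was taken out, SCARA5 with DPP4 stood at -0.79 and SCARA5 with ECRG4 at -0.69, while ECRG4 with DPP4 stayed at 0.76. The values for SCARA5 rested largely on ram 835507, without which they were -0.39 with DPP4 and -0.07 with ECRG4 (18 ram sums), and ECRG4 with DPP4 was 0.38. CD34 with CLEC3B was 0.74 with the means taken out and lay between 0.44 and 0.92 when any 1 ram was left out.

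APOD changed sides between these views. Over the 21 ram sums its r was negative with 6 of the 7 others, with a median of -0.44. With the means of genotype and position taken out it was positive with 6 of 7, with a median of 0.29, led by CD34 at 0.75 (0.55 to 0.85 on leaving out single rams) and CLEC3B at 0.67 (0.57 to 0.73). Thus rams with much CD34 and CLEC3B for their place on the tail also had much APOD, although APOD was higher and CLEC3B lower at the tip.

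**Figure D4:**
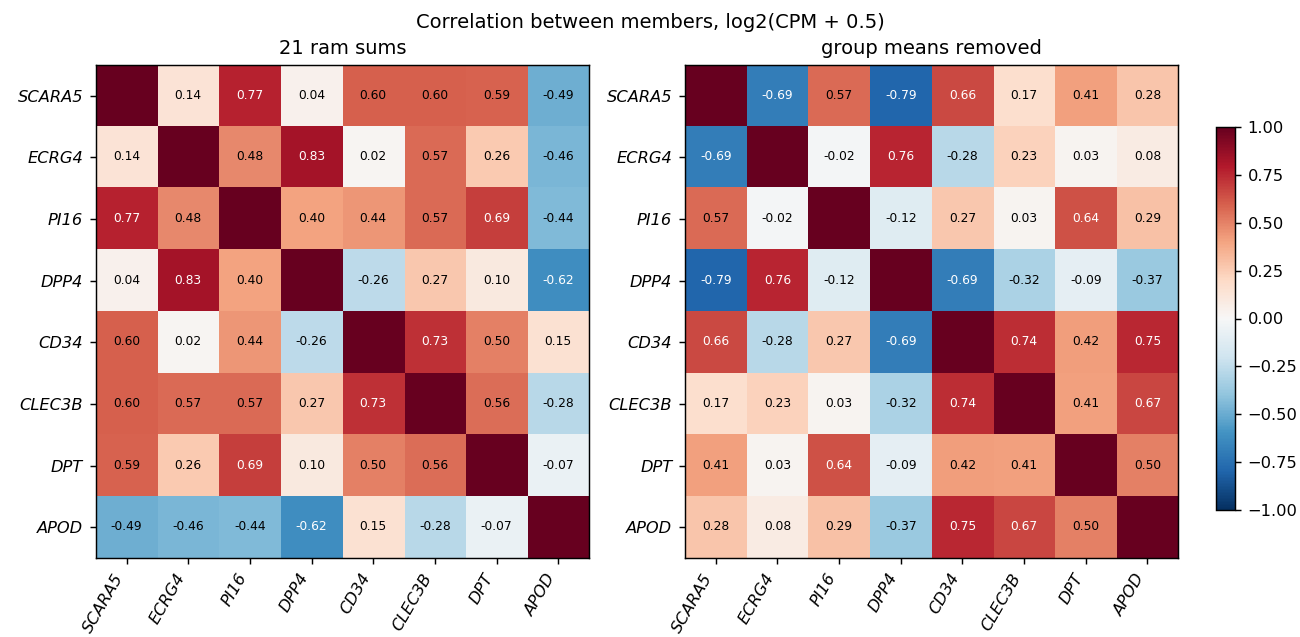
Pearson's r between members for log2(CPM + 0.5) over 21 ram sums, as measured (left) and with the mean of each genotype and position taken out (right), on a scale from -1 (blue) to 1 (red). The APOD row is mostly blue on the left and mostly red on the right, and SCARA5 with DPP4 goes from 0.04 to -0.79, which rests largely on ram 835507.

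The genes with the pattern most like the mean of the members' standardised values over the 21 ram sums, out of 12918 candidates, were CD14 (r = 0.888), GALNT16 (0.851), SFRP4 (0.847), GLIPR2 (0.845), ZNF385D (0.842) and HPCAL1 (0.841). That mean included APOD, which ran the other way along the tail. SFRP4, a secreted Wnt antagonist, had 41.7 CPM at the base, 28.5 at mid-tail and 6.62 at the tip, and ZNF385D, a zinc finger gene, 5.0, 3.28 and 1.53 CPM. With the means of genotype and position taken out, the most alike were IGF2 (0.845), PARVA (0.825), GNAS (0.820), MGP (0.817), CMTM3 (0.815) and FBLN5 (0.815), and their adjusted p between tip and base in edgeR lay between 0.197 and 0.853.

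The libraries of the same ram and position differed more in most members than in the average gene. The median absolute difference between library 2 and library 1, over 20 pairs, was 0.63 log2 units for SCARA5, 0.60 for CLEC3B, 0.56 for PI16, 0.52 for ECRG4, 0.50 for DPT and 0.40 for APOD. It was 0.25 for CD34 and 0.20 for DPP4, beside a median of 0.22 over 12329 genes with a mean of at least 5 CPM. At the base of ram 871868 SCARA5 had 20.4 CPM in library 1 and 75.7 CPM in library 2, and at the tip of ram 871772 it had 36.7 and 13.1 CPM. The labels call the libraries replicates and do not say whether they came from separate pieces of skin.

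SCARA5 was higher in library 2 in 16 of 20 pairs, by 0.43 log2 units (SE 0.15, unadjusted p 0.00767, adjusted p 0.968 in edgeR). In that comparison 0 of 8 members and 0% of 18679 genes were called, with 3 members and 847 genes at an unadjusted p under 0.05, and no other tool was run for it. The change of SCARA5 from base to tip was -2.56 in D/D and -1.98 in A/A in libraries numbered 2, and -1.18 and -1.30 in libraries numbered 1. PI16 stood at -2.03 and -1.57 in libraries numbered 2 and at -1.03 and -0.91 in libraries numbered 1. ECRG4 was about equal in both, with -1.29 and -1.80 in libraries numbered 2 and -1.30 and -1.72 in libraries numbered 1.

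The difference between libraries ran along with ADIPOQ, the gene of the adipocyte hormone adiponectin, which was picked after the values were seen. SCARA5 and ADIPOQ differed in the same direction in 19 of 20 pairs, with r = 0.89 across pairs (0.87 to 0.91 on leaving out single rams). Of 12328 genes with a mean of at least 5 CPM, 0.122% matched the direction of ADIPOQ in 19 or more pairs, and 3 genes, SCARA5 counted, had an r as high. ECRG4 and CLEC3B matched in 17 pairs, DPT and APOD in 16, PI16 in 15, CD34 in 14 and DPP4 in 12, where the median gene matched in 10. The match was not particular to ADIPOQ. SCARA5, ECRG4, PI16 and CLEC3B matched the pan-fibroblast mean in 16 pairs, CD34, DPT and APOD in 15 and DPP4 in 11. ECRG4 matched the mean of the adipocyte genes in 18 pairs, and SCARA5 and CLEC3B in 16. CD34, DPT and APOD matched it in 13, PI16 in 12 and DPP4 in 11. With ADIPOQ, r was 0.40 for CLEC3B, 0.48 for CD34, 0.52 for ECRG4, 0.59 for PI16 and 0.79 for DPT. DPP4 had r = 0.10 with ADIPOQ and r = -0.71 with the mean of the keratinocyte genes.

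**Figure D5:**
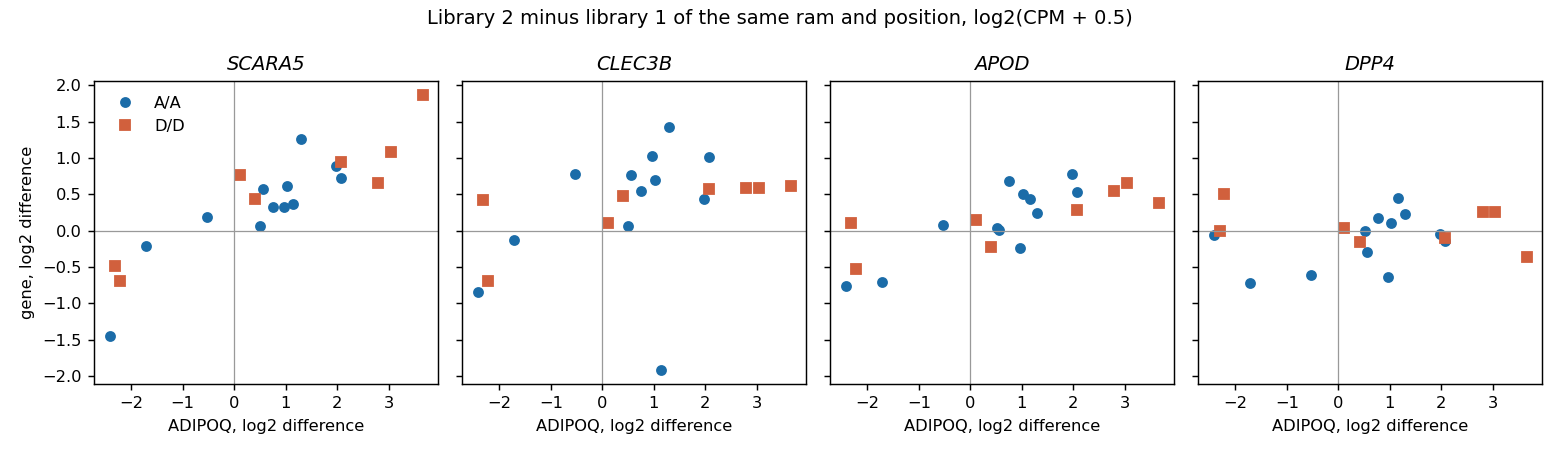
Difference between library 2 and library 1 of the same ram and position in log2(CPM + 0.5), for ADIPOQ (horizontal) against SCARA5, CLEC3B, APOD and DPP4 (vertical), with 1 point for each of 20 pairs, A/A as blue circles and D/D as orange squares. SCARA5 rises with ADIPOQ (r = 0.89), APOD does so less steeply (r = 0.77), and DPP4 shows no such slope (r = 0.10).

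Along the tail SCARA5 and ADIPOQ parted in some rams. ADIPOQ differed from base to tip by -3.82, -3.77, -2.72 and -2.89 log2 units in rams 871772, 871787, 871868 and 871869, but by 0.52, -0.16 and 0.03 in the A/A rams 835507, 871784 and 871932. SCARA5 was lower at the tip in these 3 rams as well, with -0.65, -2.40 and -1.41, and PI16 stood at -0.70, -1.84 and -0.19. In rams 871772, 871787, 871868 and 871869 SCARA5 fell together with ADIPOQ, by -2.02, -2.36, -1.51 and -2.02. Over the 21 ram sums r with ADIPOQ was 0.67 for SCARA5, 0.68 for DPT, 0.60 for CD34, 0.56 for CLEC3B and 0.53 for PI16. It was 0.17 for ECRG4, 0 for DPP4 and -0.16 for APOD. APOD, which matched ADIPOQ between libraries, was higher at the tip in all 7 rams. The part of fat, or of the depth at which the skin was cut, in the members' values was not tested.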

How the data were processed

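Libraries of oligo(dT)-selected RNA (CorALL kit) were sequenced as paired-end reads and checked with FastQC 0.11.9. The authors aligned reads with ContextMap and BWA to ARS-UI_Ramb_v3.0 and deposited raw counts for each RefSeq gene, taken with strand-specific featureCounts, whose version is not given in the sources used here. The tip columns, with the unit name expected count in the table of units only because of a word in their names, were counted and deposited by the authors as whole counts in the same way, and needed no rounding. All 41 columns were used. The labels list 4 A/A rams and all entered.

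Members, lists and the naming rule were chosen with earlier results of these data known. The rule names the members, the called and the 4 most significant genes of the other adventitial list, up to 2 genes by p of each other list, and the 6 genes most alike in each view. Further genes (COL1A1, PDGFRA, PECAM1, PROX1, FLT4, PLIN4, FABP4, FTH1, TFRC, SLC40A1, SCARA3, COLEC12, FAP, SEMA3C and ANXA3) were named after their values were seen.

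Ram sums were analysed in R 4.3.3 with edgeR 4.0.16 (TMM, filterByExpr, quasi-likelihood test). P-values were adjusted over all genes after Benjamini-Hochberg and called under 0.05. Contrasts along the tail had a term for ram because each ram gave all positions. Deviations from group means correlated at more than 0.1 in 20 of the 21 pairings within rams (lowest 0.0539, median 0.473, highest 0.851). Genotypes were compared on 7 sums at each position. The SE is the log2 fold change over the root of F. Libraries of a ram count as 1 sample. DESeq2 1.42.0, limma-voom (limma 3.58.1), other scalings, filters, thresholds and subsets were tried. Scripts were tested on simulated data. Coordinates come from RefSeq for the same build. Sequences were not used here, and a planned motif search was not run.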

Additional observations from a re-analysis of the deposited data

Results flagged for a closer look

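Every group of 4 A/A rams, 24 in all with 1 for each member and position, was searched for a ram far from the others, and 2 were found, while chance alone gives about 1 in 20. At the A/A base SCARA5 was 39.1 CPM in ram 871932 and 85.4 to 91.8 CPM in the other 3 rams. At the A/A base ECRG4 was 8.17 CPM in ram 835507 and 16.2 to 17.6 CPM in the other 3. Groups of 3 D/D rams were not searched.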

How the results depend on the processing

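In 215 of 254 alternatives the counts of called genes stayed within 1.5 times or stayed at 0. Most of the 13 results behind these alternatives had a count of 0 in the main setting, so that the total says little about the counts above 0. Of 1790 values of single genes 158 lost the call of the main setting, and 7 moved by at least the SD of the rams. In 18 of the 1790 the sign turned, 6 of them in libraries numbered 1. Without the term for ram (no replicate block) the members called from base to tip went from 5 to 0 in A/A, from 2 to 0 in D/D and from 6 to 3 over both, and other adventitial genes from 10 to 1. Of all 19029 genes, 8 were then lower and 10 higher in A/A, 2 and 0 in D/D, and 80 and 42 over both. In the main setting these were 153 and 164, 87 and 23, and 510 and 368 of 19444. With library number as a replicate block on single libraries, 4 members were called in D/D, 3 at mid-tail in A/A, 1 from mid-tail to tip, and 2 other adventitial genes at mid-tail. Of all 18297 genes that fit called 541 lower and 405 higher at the tip in D/D, and 186 and 212 at mid-tail over both genotypes. Base to tip in D/D gave 4 members by DESeq2, 4 by edgeR and 5 by DESeq2 on single libraries, 0 in libraries numbered 1 and 0 in those numbered 2, and 1 at an adjusted p of 0.01 with a log2 change over 1. Of all genes DESeq2 gave 391 lower and 127 higher, and single libraries 555 and 420 (edgeR) and 817 and 468 (DESeq2). Libraries numbered 1 gave 19 and 7, and those numbered 2 gave 5 and 0. Fits on single libraries, also with library number as a block, took libraries of the same ram and position as separate samples. Their counts thus rest on libraries and not on rams as replicates. In A/A libraries numbered 2 gave 0, where 9 of all 18064 genes were lower and 10 higher. At mid-tail in A/A, 3 members were called by DESeq2, by edgeR on single libraries and by DESeq2 on them, and in D/D 1 by the last. From mid-tail to tip, against 0, DESeq2 gave 2, no filter 1, and single libraries 1 (edgeR) and 2 (DESeq2). Other adventitial genes from base to tip numbered 3 in libraries numbered 1, 6 in libraries numbered 2 and 5 at the stricter threshold, and at mid-tail, against 0, 2 by DESeq2, without filter and on single libraries by either tool. Of all genes, libraries numbered 1 gave 330 lower and 323 higher at the tip, and those numbered 2 gave 138 and 53. At mid-tail DESeq2 gave 116 and 149, no filter 37 and 30, and single libraries 194 and 227 (edgeR) and 364 and 378 (DESeq2).

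Leaving out 1 ram gave 0 to 3 members from base to tip in D/D (0 without any D/D ram, 3 without 835507), 0 to 1 at mid-tail in A/A (1 without 871784) and 0 to 1 from mid-tail to tip (1 without 835507). It gave 4 to 10 other adventitial genes from base to tip (4 without 871787 or 871869) and 0 to 1 at mid-tail (1 without 835507 or 871784). Of all genes from base to tip in D/D, 2 were lower and 0 higher without 871787, 1 and 0 without 871868, and 2 and 2 without 871869. Without 835507 these were 155 and 51. Over both genotypes 189 were lower and 110 higher without 871787, and 188 and 155 without 871869. In libraries numbered 1 the sign turned for the D/D minus A/A change of SCARA5 (0.13 against -0.31), for OGN (0.03 against -0.78), for CD34 from base to tip in A/A (0.08 against -0.26), and for DPT from base to tip in D/D (0.05 against -0.70) and from base to mid-tail in D/D (0.28 against -0.25) and over both (0.24 against -0.01). The 12 other turns lay in CD34, CLEC3B and DPT at mid-tail and in CD34 relative to the pan-fibroblast mean. The causes were not tested. There were 3 D/D rams, and libraries differed more in most members than in the median gene. Differences between genotypes of 1 log2 unit in the base-to-tip change of SCARA5, ECRG4, PI16, DPP4 or DPT lie within the intervals.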
